A study of Homo sapiens with 4 samples.

Results

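This section describes 10 genes of cellular iron handling in U937 cells cultured with or without phorbol 12-myristate 13-acetate (PMA). The genes were chosen by their role in iron handling, with earlier results of these data known, and were found by symbol, each in 1 of the 60662 rows of the deposited count table. They are the ferritin chains FTH1 and FTL, the transferrin receptor TFRC, the metal transporters SLC11A1 and SLC11A2, the iron exporter SLC40A1, the haem-degrading enzyme HMOX1, the iron regulatory proteins ACO1 and IREB2, and the ferritin receptor NCOA4. U937 is an established human myeloid line derived from a histiocytic lymphoma, and PMA, a phorbol ester acting on protein kinase C, is used to turn such cells into macrophage-like cells. RNA was sequenced from 2 libraries of untreated cells and from 2 libraries of cells kept in 10 nM PMA, both at 72 h. There was 1 library of each kind from each of 2 lots of cells. No genotype differed between the groups, all libraries came from the same cell line, and the labels do not state whether the lots are separate cultures, so p-values here reflect only library-to-library spread, possibly technical.

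Iron enters most cells as transferrin bound to TFRC, is moved out of endosomes and phagosomes by SLC11A2 and SLC11A1, is stored in shells of ferritin heavy and light chains, and leaves through SLC40A1. Macrophages also take up iron by digesting red cells, where HMOX1 frees it from haem. When iron is scarce, the iron regulatory proteins ACO1 and IREB2 bind hairpins called iron-responsive elements: at the start of an mRNA such as that of ferritin they block translation, and in the end region of TFRC mRNA they slow its decay. NCOA4 carries ferritin to the lysosome when stored iron is needed.

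The hairpins are shown first because FTH1, FTL and TFRC, described below, carry them in different places. GENCODE release 29 transcripts were searched for C, then 5 bases, the loop CAGUGN and 5 bases that pair with the first 5, with G-U pairs allowed. The loop is in capitals and each sequence is written 5′ to 3′.
FTH1, 5′ UTR: cuucaaCAGUGCuugga
FTL, 5′ UTR: cuucaaCAGUGUuugga
SLC40A1, 5′ UTR: cagcuaCAGUGUuagcu
TFRC, 3′ UTR, match 1: cggaagCAGUGCcuucc
TFRC, 3′ UTR, match 2: cgggagCAGUGUcuucc
TFRC, 3′ UTR, match 3: cggagaCAGUGAucucc
TFRC, 3′ UTR, match 4: cgggaaCAGUGUuuccc
The ferritin hairpins differ from each other only in the last base of the loop. This pattern was present in the 5′ UTR of 36 of 18827 genes with an annotated 5′ UTR (0.191%), 3 of them among the 10 genes, and in the 3′ UTR of 132 of 19107 genes (0.691%), of which TFRC was 1 of the 10. Ferritin and TFRC mRNAs were already known to carry such elements, as described above. The shares are therefore given for scale and are no test of the 10 genes. A match is a description of the letters and not a measurement of binding. The pattern required all 5 pairs, so a hairpin with a mismatch in these pairs or another loop would be missed. A gene without a match is therefore not shown to lack an element.

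Libraries held 35739833 to 54915928 counts. A level is given as CPM, the count relative to the TMM-adjusted library total, and a group value is mean ± SD with n = 2. Differences are log2 fold changes of PMA against untreated cells with their standard error (SE), from edgeR's quasi-likelihood test, and a gene passed the test at a Benjamini-Hochberg adjusted p under 0.05 over 16451 tested genes. Of 14 monocyte and macrophage markers, 13 were tested, and 6 rose and 0 fell, against 4.29% and 2.02% of all tested genes. CD14 and CD163, both called higher, were at 0 in both untreated libraries and could not have been called lower. LYZ (−1.63) and MARCO (−2.26) had negative log2 fold changes that did not pass the test, and CD33 was at 0.06. The summed level of the 14 was 805 and 1598 CPM without PMA and 5493 and 5297 CPM with it, with MRC1 at 0 in all 4 libraries. Single genes weighed on these sums: LYZ was at 904 CPM in the untreated library of lot 2, and ITGAX at 1907 and 2703 CPM with PMA. Of 14 erythroid markers, 13 were at 0 in all 4 libraries, the globin genes among them, as were 9 of 10 fibroblast and epithelial markers. Of 9 T and NK cell markers, 5 were at 0 in all 4 libraries, among them CD3D, CD3E and CD3G, and the summed level was 0.0926 to 1.39 CPM without PMA and 16.8 to 47.1 CPM with it. The part of these T and NK markers in the results was not tested. Of 6 B cell markers, MS4A1 and CR2 were at 0 in all 4 libraries, and the summed level was 17.6 to 26.8 CPM without PMA and 11.3 to 13.5 CPM with it. In such bulk samples, a change in the share of cells that express a gene and a change of RNA per cell cannot be told apart.

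All 10 genes passed the filter on low counts, and FTH1, SLC11A1 and TFRC rose with PMA. That is 3 of 10, against 4.29% of all tested genes, and 0 of 10 fell, against 2.02%. Both PMA libraries lay above both untreated libraries for 6 of the 10 genes, against 31.0% of tested genes, and below them for SLC40A1 and ACO1, against 29.4%. The median log2 fold change of the 10 genes was 1.35, against 0.00 over all tested genes. DESeq2, run as an alternative, called FTL, HMOX1 and SLC11A2 higher as well, 6 of 10 in all, against 13.1% of the genes it tested, and 0 of 10 lower, against 10.3%.

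**Figure D1:**
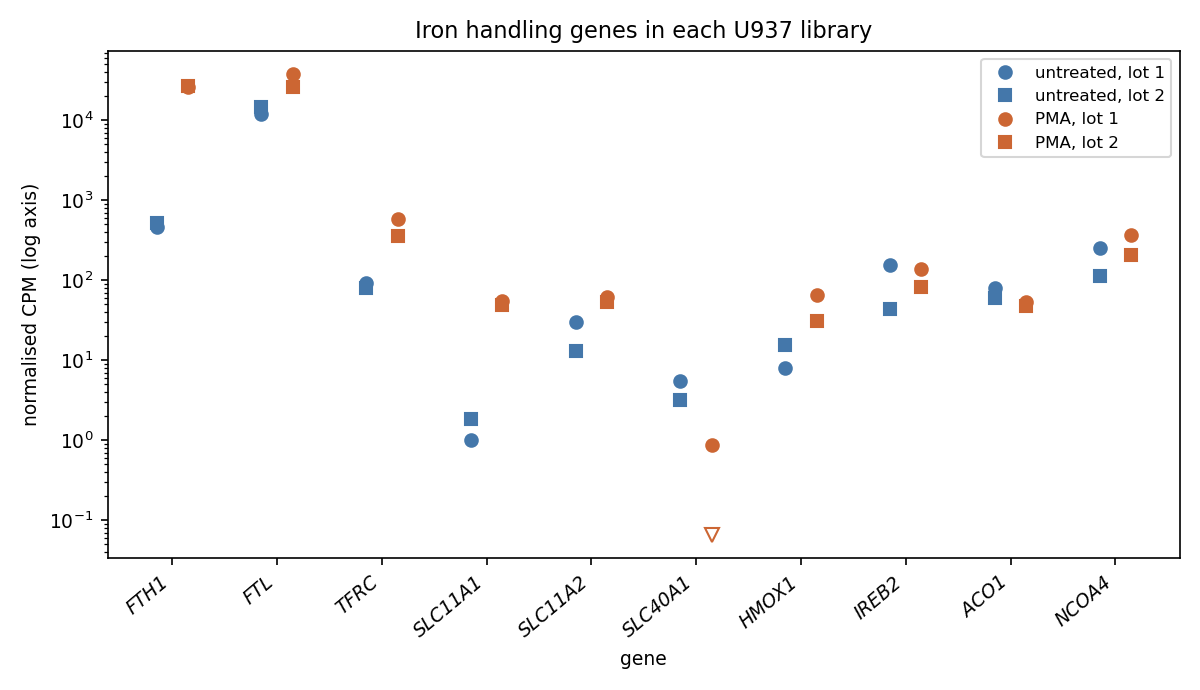
Normalised CPM on a log axis of the 10 iron handling genes in each of the 4 libraries; colour gives the treatment and shape the lot, and the open triangle marks SLC40A1 at 0 in the PMA library of lot 2, drawn at the level that 3 counts would give. The PMA libraries of FTH1 and SLC11A1 stand far above the untreated ones, while those of IREB2 and NCOA4 overlap with them.

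The ferritin heavy chain FTH1, the subunit that oxidises ferrous iron for storage, was at 458 and 516 CPM without PMA, in lots 1 and 2, and at 25811 and 27228 CPM after PMA. The libraries of each group lay close together and the groups did not overlap. FTH1 rose by 5.77 ± 0.29 on the log2 scale (SE, edgeR adjusted p = 0.0148), which was 56.4-fold in lot 1 and 52.8-fold in lot 2. Among all rows ordered by CPM, it went from places 222 and 228 to places 2 and 1.

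The light chain FTL, which supports mineral formation in the shell, was the most abundant row in both untreated libraries, at 11869.6 and 14808 CPM. It was at 38169 and 26470.5 CPM with PMA. Both PMA libraries were above both untreated libraries, by 3.22-fold in lot 1 and 1.79-fold in lot 2, but the difference of 1.28 ± 0.30 on the log2 scale did not pass the test (edgeR adjusted p = 0.0712). The result depended on the test and on 1 library: the adjusted p was 0.0105 with DESeq2, 0.0338 with limma-voom and 0.0186 without the PMA library of lot 2, and 0.200 at its highest over 16 alternatives.

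The balance of the chains also differed between the groups. Each FTH1 count was matched by 25.9 (lot 1) and 28.7 (lot 2) FTL counts without PMA, and by 1.48 and 0.972 with PMA. The log2 ratio of FTH1 to FTL counts was −4.77 ± 0.10 without PMA and −0.26 ± 0.43 with it (SD, n = 2). The difference was 4.13 in lot 1 and 4.88 in lot 2, and an exact permutation test of 2 libraries against 2 gave p = 0.333, two-sided, the smallest this design allows. Together the chains took 1.42% and 1.60% of all counts without PMA, and 5.84% and 4.89% with it. Per kilobase of the longest annotated transcript, the level of FTH1 was 0.0275 and 0.0249 of that of FTL without PMA and 0.483 and 0.735 of it with PMA.

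**Figure D2:**
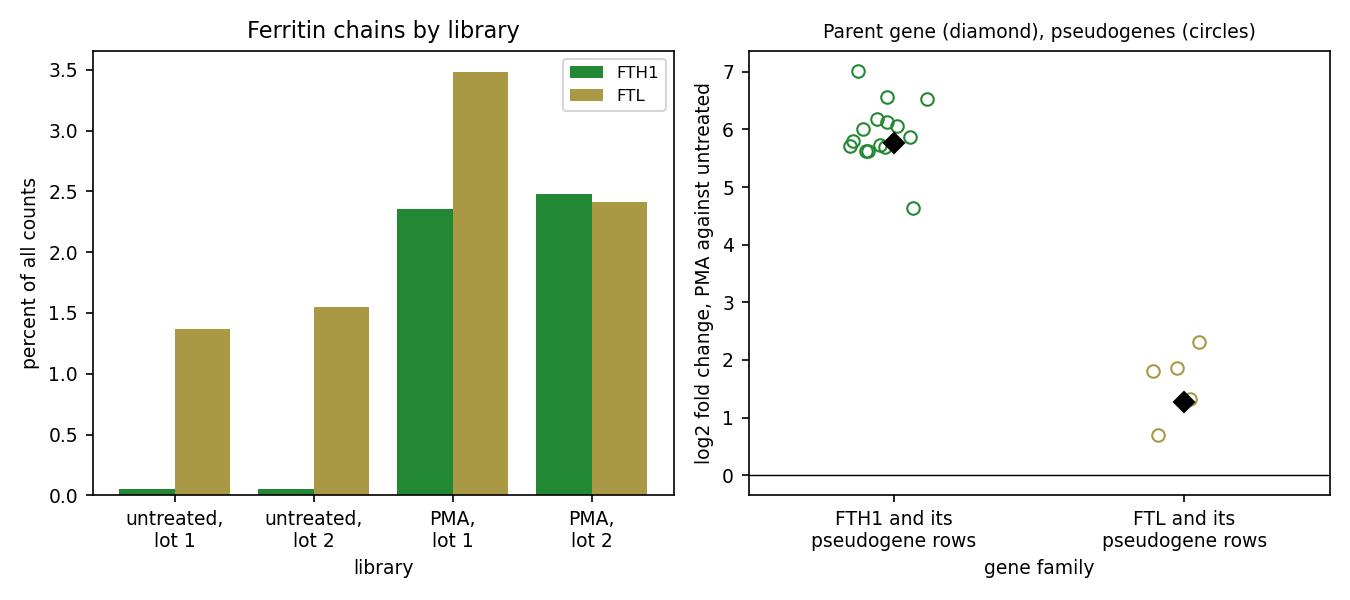
Left, bars give the percent of all counts in each library that fell on FTH1 and FTL: FTH1 was near 0.05% in both untreated libraries and at 2.36% and 2.48% in the PMA libraries. Right, fitted log2 fold changes of the parent genes (diamonds) and of their tested pseudogene rows (circles), in which the rows named after FTH1 lie between 4.63 and 7.02.

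Both chains have many processed pseudogenes, copies of the mRNA in the genome with which reads can be shared, so the split of reads between copies is uncertain. The table held 24 rows named as FTH1 pseudogenes, 6 of them at 0 in all 4 libraries, and their sum was 9.73% and 6.16% of the FTH1 count without PMA, and 10.2% and 8.91% with PMA. Of the 15 that were tested, 13 rose and 0 fell, against 4.29% and 2.02% of all tested genes. Their log2 fold changes were 4.63 to 7.02, with a median of 5.87, close to that of FTH1. As reads can be shared with FTH1, these rows are not separate evidence of its rise. Some rows, such as FTH1P1 with 3 and 1 counts without PMA, were too low there to be called lower. FTH1P10 was at 10.5 and 2.92 CPM in untreated and 649 and 597 CPM in PMA libraries, and FTH1P8 at 7.43 and 10.8 and at 461 and 442 CPM. The 16 FTL pseudogene rows summed to 1.49% to 2.88% of the FTL count, nearly all of it in FTLP3, which rose from 198 ± 21.9 to 719 ± 13.1 CPM (1.86 on the log2 scale, edgeR adjusted p = 0.0354). FTLP2, the next, was at 8.30 and 7.20 CPM in untreated and 25.9 and 28.3 CPM in PMA libraries. With the pseudogene rows added to their parents, the log2 fold change was 5.79 for FTH1 (edgeR adjusted p = 0.0161) and 1.29 for FTL (edgeR adjusted p = 0.0686).

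TFRC, the receptor that brings transferrin-bound iron into the cell, was at 92.1 and 80.8 CPM in untreated and 583 and 361 CPM in PMA libraries. The PMA libraries differed from each other more than the untreated ones, and the groups did not overlap. TFRC rose by 2.45 ± 0.37 on the log2 scale (edgeR adjusted p = 0.0348), 6.33-fold in lot 1 and 4.47-fold in lot 2. The call was lost without the untreated library of lot 2 (adjusted p = 0.0539), without the PMA library of lot 1 (0.142), without that of lot 2 (0.0517), and with the lot as a block together with offsets for transcript length (0.0578). It was 3.83e-07 with DESeq2, and the log2 fold change lay between 2.0 and 2.77 over all 16 alternatives. TFRC and FTH1, whose hairpins shown above lie in the 3′ and the 5′ UTR, were both higher in the PMA libraries. The part of the hairpins in these RNA levels was not tested.

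SLC11A1 (NRAMP1), the phagosomal metal transporter of macrophages, was nearly silent without PMA, at 1.01 and 1.83 CPM from 64 and 79 counts. It was at 54.4 and 49.6 CPM with PMA, from 1773 and 2294 counts. The groups were far apart and SLC11A1 rose by 5.20 ± 0.53 on the log2 scale (edgeR adjusted p = 0.0224), 53.7-fold in lot 1 and 27.1-fold in lot 2. It passed the test under all 16 alternatives, with adjusted p of at most 0.0377.

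Its paralogue SLC11A2 (DMT1), which carries ferrous iron out of endosomes, was at 29.9 and 13.1 CPM in untreated and 62.4 and 53.8 CPM in PMA libraries. The untreated libraries differed by more than the PMA libraries, and the groups did not overlap. The difference of 1.43 ± 0.51 on the log2 scale did not pass the test (edgeR adjusted p = 0.158), and it did so in 2 of 16 alternatives, with DESeq2 (0.0429) and without the untreated library of lot 1 (0.0292), where it was 2.08 on the log2 scale. Per kilobase, the mean level of SLC11A1 was 0.246 CPM without PMA, below the 4.95 CPM of SLC11A2, and 9.0 CPM with PMA, against 13.4 CPM for SLC11A2.

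**Figure D3:**
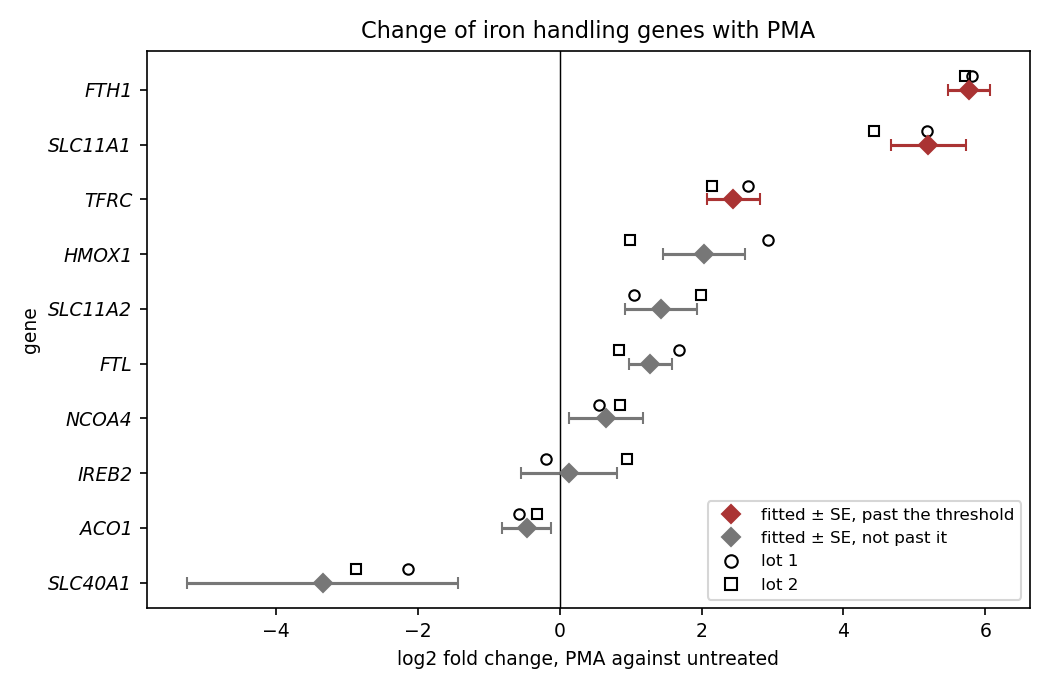
Log2 fold changes of the 10 genes with PMA, ordered by size. Diamonds are fitted values with their SE, dark red where the gene passed the test, and open symbols are the differences within lots 1 and 2 after adding 0.5 to the CPM. The lots of FTH1 differ by 0.10, while those of HMOX1 lie at 2.94 and 1.00.

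The 250 bases before the annotated start of TFRC and SLC11A1, which both rose, are shown here from the RefSeq promoter table (GRCh38.p14). That table held 8 of the 10 genes, all but FTH1 and HMOX1, so FTH1, which also rose, is not shown. Both strands were searched for an AP-1 element (TGANTCA, the site of the FOS and JUN factors that respond to PMA), the core of an antioxidant response element (TGACNNNGC, which can overlap the AP-1 letters), an E-box with the letters CACGTG, the box spelled CCAAT that binds NF-Y, the Sp1-type box spelled GGGCGG (GC box below) and a run of 5 GT repeats. Capitals mark the matches.
TFRC, chr3:196082091-196082340, minus strand: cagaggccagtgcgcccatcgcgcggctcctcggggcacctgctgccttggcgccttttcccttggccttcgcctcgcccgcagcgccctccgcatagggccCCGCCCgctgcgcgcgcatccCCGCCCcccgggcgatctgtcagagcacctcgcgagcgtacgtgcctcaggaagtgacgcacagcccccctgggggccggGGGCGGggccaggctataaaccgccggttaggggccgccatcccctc
SLC11A1, chr2:218382023-218382272, plus strand: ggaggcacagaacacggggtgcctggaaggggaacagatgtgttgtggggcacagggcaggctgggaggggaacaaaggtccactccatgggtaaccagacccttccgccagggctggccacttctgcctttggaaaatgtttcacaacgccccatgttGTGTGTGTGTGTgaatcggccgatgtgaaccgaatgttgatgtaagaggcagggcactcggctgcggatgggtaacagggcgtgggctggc
GC boxes were present in 7 of the 8 genes, against 42.6% of 35116 windows, and SLC11A1 was the one without. The GT run was found in SLC11A1 alone among the 8, against 0.894% of windows, and the AP-1 letters in NCOA4 alone, against 6.57%. No rule was set beforehand for choosing these motifs, so the shares do not show that a match was unexpected. Neither the E-box (6.34% of windows) nor the antioxidant core (10.9%) was found in the 250 bases of the 8 genes. CCAAT was found in those of FTL and SLC11A2 (32% of windows). Sequence further away, and that of FTH1 and HMOX1, was not searched.

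SLC40A1 (ferroportin), the only known cellular exporter of iron, was at 5.45 and 3.17 CPM without PMA, at 0.859 CPM with PMA in lot 1 and at 0 in lot 2, where a count of 0 allows up to 0.0648 CPM. Both PMA libraries were below both untreated ones. The difference of −3.34 ± 1.91 on the log2 scale did not pass the test (edgeR adjusted p = 0.343). The size of the difference is not settled by these libraries: it was −2.31 without the PMA library of lot 2, −4.90 with the lot as a block, −5.76 with limma-voom and −10.80 without the PMA library of lot 1. The last of these passed the test (adjusted p = 0.0385), but there the remaining PMA library is at 0, so the value rests on a prior count. The copper oxidases CP, HEPH and HEPHL1, relatives that oxidise exported iron, were at 0 in all 4 libraries, and the hormone HAMP, which removes SLC40A1 from the cell surface, was at 0 in 3 libraries and at 1.06 CPM in the PMA library of lot 2.

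HMOX1, the inducible haem oxygenase, was at 8.02 and 15.4 CPM in untreated and 64.9 and 31.4 CPM in PMA libraries. All libraries of the groups were apart, but the lots differed in size, with 8.10-fold in lot 1 and 2.03-fold in lot 2. The difference of 2.04 ± 0.58 on the log2 scale did not pass the test (edgeR adjusted p = 0.0994), and among 16 alternatives it passed with DESeq2 (0.00572). It was 1.35 on the log2 scale without the PMA library of lot 1. The constitutive oxygenase HMOX2 was at 17.5 and 33.5 CPM in untreated and 21.9 and 19.7 CPM in PMA libraries (−0.29 ± 0.47, edgeR adjusted p = 0.749).

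The iron sensors did not pass the test. ACO1, an aconitase that becomes an RNA-binding protein when it loses its iron-sulphur cluster, was at 80.8 and 60.2 CPM in untreated and 54.2 and 48.1 CPM in PMA libraries (−0.46 ± 0.34, edgeR adjusted p = 0.466). IREB2, which is degraded when iron is plentiful, was at 157 and 43.2 CPM in untreated and 137 and 83.5 CPM in PMA libraries. Its untreated libraries differed by more than the groups did, the lots pointed in opposite directions, and the difference of 0.14 ± 0.68 had an adjusted p of 0.922 by edgeR. FBXL5, the iron-sensing ligase subunit that marks IREB2 for decay, was at 49.4 and 22.6 CPM in untreated and 46.8 and 35.3 CPM in PMA libraries (edgeR adjusted p = 0.852). NCOA4 was at 252 and 115 CPM in untreated and 372 and 207 CPM in PMA libraries. It was higher with PMA in each lot, by 1.47-fold and 1.81-fold, but the groups overlapped (0.66 ± 0.52, edgeR adjusted p = 0.495). Single libraries moved this difference, to 1.28 without the untreated library of lot 1, 0.20 without that of lot 2 and 0.11 without the PMA library of lot 1. IREB2 moved further, from −0.51 without the untreated library of lot 2 to 1.29 without that of lot 1.

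The longest annotated transcripts of IREB2 and NCOA4 are 6.35 and 3.55 kilobases, and transcript length moved with the library. Among tested genes at 10 CPM or more, the median log2 difference between the untreated libraries of lots 1 and 2 was −0.35 among the 3063 shortest genes and 0.61 among the 3062 longest, and the median log2 fold change with PMA was −0.34 and 0.39 in the same classes. The part of length in the results was not tested beyond the following correction. A length trend was removed from each library. The log2 fold change was then 5.95 for the short FTH1, 1.49 for FTL, 2.18 for TFRC and 4.81 for SLC11A1. It was −0.08 for IREB2 and 0.60 for NCOA4. For ACO1, with a longest transcript of 7.47 kilobases, it moved from −0.46 to −0.85. The same 3 genes passed the test.

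A wider list of 108 genes of iron and haem metabolism was read from the same fit. Of the 84 tested, 3 rose (EPAS1, CD163 and POR) and 1 fell (LYRM4), and their median log2 fold change was −0.05, so their shares of calls were near those of all tested genes (4.29% higher and 2.02% lower). DESeq2 called 8 higher and 8 lower, against 13.1% and 10.3% of the genes it tested.

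Among 18 other genes of iron uptake and the cell surface, 10 were tested and 0 passed the test. The ferrireductase STEAP3, which reduces iron in the transferrin endosome, was at 94.2 and 132 CPM in untreated and 39.0 and 34.7 CPM in PMA libraries (−1.62 ± 0.35, edgeR adjusted p = 0.0624), the opposite side from TFRC. Of 13 other storage, chaperone and export genes, 6 were tested and 0 passed, and PCBP1, a chaperone that loads iron into ferritin, had the smallest p at 0.60 ± 0.27 (edgeR adjusted p = 0.237). The mitochondrial ferritin FTMT was at 0 in all 4 libraries.

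Of 16 other regulatory genes, 12 were tested and 1 rose, against 4.29% of all tested genes. EPAS1 (HIF-2α), whose mRNA also has a described iron-responsive element, was at 16.0 and 7.88 CPM in untreated and 168 and 93.9 CPM in PMA libraries (3.45 ± 0.57, edgeR adjusted p = 0.0382), and its call was lost without the PMA library of lot 1 (0.0889). Of the 3 tested genes of a list of 5 other mRNAs with such elements, EPAS1 was the one that passed. NFE2L2 (NRF2), a transcription factor that acts on FTH1, FTL and HMOX1, was at 98.7 and 44.4 CPM in untreated and 225 and 175 CPM in PMA libraries (edgeR adjusted p = 0.128). BACH1, of the same list, was at 69.7 and 12.2 CPM in untreated and 156 and 101 CPM in PMA libraries (edgeR adjusted p = 0.296). The part of either gene in the results was not tested.

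Of 13 genes of haem uptake, transport and breakdown, 10 were tested, and 2 rose and 0 fell, against 4.29% and 2.02% of all tested genes. For CD163, without untreated counts, only a rise could be called. CD163, the receptor for haemoglobin bound to haptoglobin, was at 0 in both untreated libraries and at 105 and 24.5 CPM with PMA (edgeR adjusted p = 0.0310, and 0.0552 with limma-voom), at least 2213-fold higher in lot 1 and 352-fold higher in lot 2 against the level of 3 counts in the untreated library of the lot. POR, the reductase that gives electrons to HMOX1, rose from 73.4 ± 11.4 to 229 ± 13.8 CPM (1.64 ± 0.31, edgeR adjusted p = 0.0499). This value lay at the threshold, and 10 of 16 alternatives did not pass it, with a highest adjusted p of 0.315.

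Of 12 haem synthesis genes, 11 were tested and 0 passed the test, with a median log2 fold change of −0.63. Of 24 genes of mitochondrial iron and iron-sulphur cluster assembly, all were tested. Of these, 1 fell and 0 rose, against 2.02% and 4.29% of all tested genes. LYRM4 (ISD11), the partner of the cysteine desulphurase NFS1, was at 36.3 and 62.7 CPM in untreated and 4.54 and 4.15 CPM in PMA libraries (−3.51 ± 0.48, edgeR adjusted p = 0.0285). Its call was lost without the PMA library of lot 1 (0.0854) and without that of lot 2 (0.120). Of 9 genes of cytosolic iron-sulphur cluster assembly, 9 were tested and 0 passed, and CIAPIN1 had the smallest p, at −1.33 ± 0.41 (edgeR adjusted p = 0.114).

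**Figure D4:**
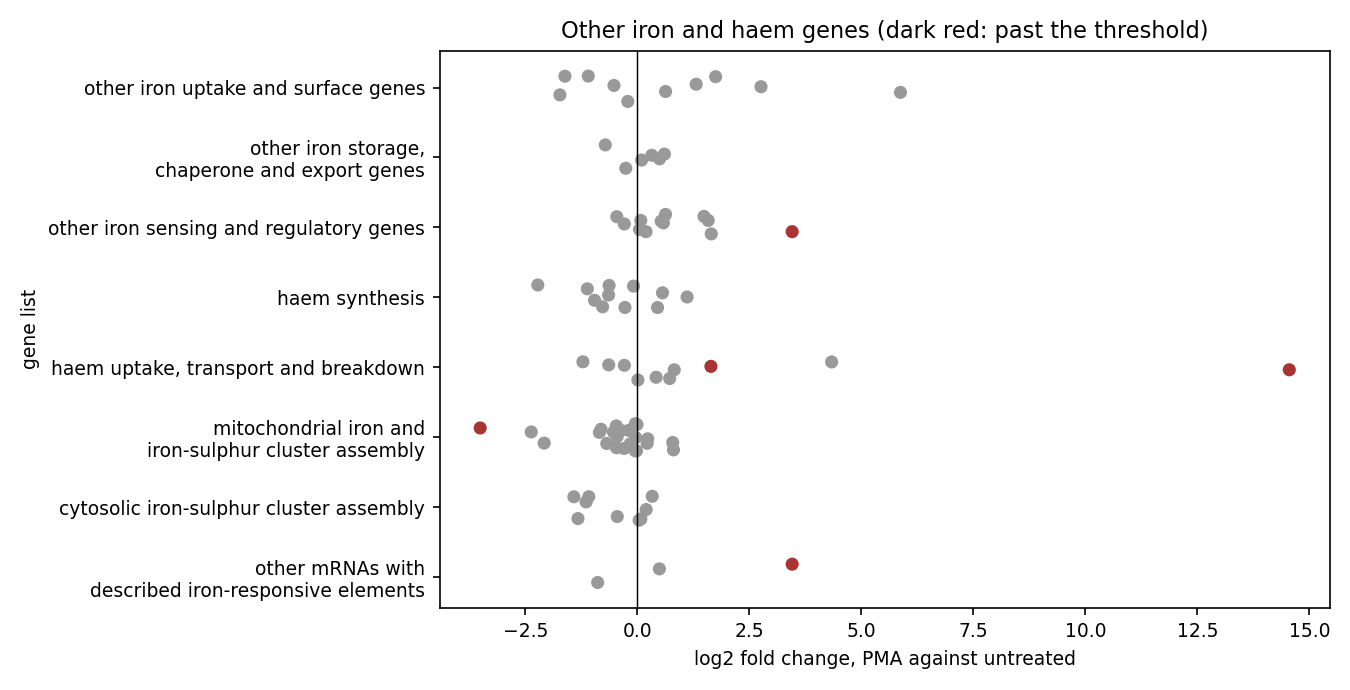
Fitted log2 fold changes with PMA of the tested genes of 8 lists of other iron and haem genes, 1 point per gene, dark red where the gene passed the test; EPAS1 stands in 2 lists. The point at 14.55 is CD163, whose position rests on a prior count because both untreated libraries were at 0.

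Likeness to single members was measured as the root mean square distance of log2 CPM, after adding 0.5 and centring each gene on its 4 libraries, over 9194 genes at 10 CPM or more. Near TFRC were the cofilin phosphatase SSH1 (0.0534) and ITM2B (0.105). SSH1 was at 40.8 and 32.5 CPM in untreated and 245 and 158 CPM in PMA libraries. The nearest to HMOX1 were CARD6 (0.143), SIK1B (0.179) and SIK1 (0.227), of which SIK1 and SIK1B are near-identical copies. The nearest to FTH1 were LINC02345 (0.0649), ZMYND15 (0.0783) and RUBCNL (0.0988), all at 0 in both untreated libraries and at 23.9 to 31.4 CPM with PMA, so that their likeness rests on the added 0.5 CPM.

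In the authors' deposited table, 3 of the 10 genes were called, FTH1, SLC11A1 and TFRC, all higher with PMA, against 1.48% of all rows called higher and 0.742% called lower. These shares are over all 60662 rows, 33746 of them at 0 in every library, and so are low beside 10 genes that all had counts. The log2 ratio in the authors' deposited table was 5.76 for FTH1 (q = 2.29e-14), 5.18 for SLC11A1 (q = 6.51e-05) and 2.43 for TFRC (q = 0.00553). For FTL the authors' deposited table gave 1.26 (q = 0.525) and for HMOX1 2.02 (q = 0.492).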

How the data were processed

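RNA of 2 untreated and 2 PMA libraries was poly(A)-enriched and sequenced on an Ion Proton, per the labels' protocols. HISAT2 2.1.0 and StringTie 2.1.1 appear in the submitters' processing notes, with no role stated. No source used here gives the build, annotation, counting program or use of strand. The deposited count table holds estimated counts per gene, already whole. The authors' second deposited table holds a signal (the count times 1 factor per library), a log2 mean level and log2 ratio, a p-value and q-value, a rank score and a call. No source used here names the test behind its p-values.

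Genes were tested across all rows with edgeR 4.0.16 in R 4.3.3 (TMM, filterByExpr, quasi-likelihood, Benjamini-Hochberg at 0.05) and, as alternatives, DESeq2 1.42.0 and limma-voom 3.58.1. Each SE is the fold change divided by the square root of F. The lot in the titles pairs the libraries (correlation of deviations of same-lot libraries 0.216 across genes). Lengths are of the longest GENCODE release 29 transcript. All 169 listed genes matched by symbol. The floors set at 3 counts cover counting error only. The members and lists were chosen with earlier results of these data known. Named are the 10 members and, of each list, called genes or the smallest p. Also named are the 2 most abundant pseudogene rows per ferritin and the nearest 3 genes of FTH1, TFRC and HMOX1. A few other genes (HMOX2, FBXL5, NFE2L2, BACH1, CP, HEPH, HEPHL1, HAMP, FTMT, FTH1P1 and some markers) were named after their values were seen. Some genes that this rule names are not reported here.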

Additional observations from a re-analysis of the deposited data

How the results depend on the processing

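Over 14 alternatives and 2 length corrections added after the data were seen, FTH1 and SLC11A1 passed the test in all 16, TFRC in 12, and ACO1, IREB2 and NCOA4 in 0. IREB2 changed sign in 4: its log2 fold change was −0.51 and −0.33 without untreated replicate 2 and without PMA replicate 1, −0.081 with library sizes reduced by the top 20 and mitochondrial genes, and −0.078 with length offsets, and without each library in turn it ran from −0.51 to 1.29. Over all genes, 721 were lower at 5 CPM in 2 libraries, 2193 were higher and 1712 lower with DESeq2, 1149 and 636 with limma-voom, and 217 lower against a fold of 1.5. Members called higher numbered 6 with DESeq2. Wider iron genes called were 8 higher and 8 lower with DESeq2, and 2 lower at 5 CPM in 2 libraries, with limma-voom and with the reduced library sizes. Leaving out each library in turn gave 424 to 1830 higher and 79 to 1085 lower genes, 2 to 4 members higher and 0 to 1 lower, and 1 to 10 wider iron genes higher and 0 to 5 lower. A single library left in a group is assumed to vary like the other group. With the lot as a replicate block, 591 genes were higher and 244 lower, the same 3 members passed, and of the 4 wider iron genes called, POR alone lost its call (adjusted p = 0.0660). Upper-quartile factors and the reduced library sizes shifted the median over all tested genes to −0.17 and −0.20 (log2), and among the members IREB2 alone changed direction, under the reduced sizes. SLC40A1 was not tested at 5 CPM in 2 libraries. With 2 libraries a group, a gene that missed the threshold is not shown to be unchanged. FTL, HMOX1 and SLC11A2 passed in 3, 1 and 2 of the 16 alternatives.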
